A study of Homo sapiens with 12 samples.

Results

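The HOXD cluster was described from every measured CpG between positions 176085000 and 176195000 of chromosome 2 (hg38). That choice took 1629 of the 3689712 CpGs of the 5-methylcytosine (5mC) table and 1590 of the 3534314 CpGs of the 5-hydroxymethylcytosine (5hmC) table. All 1590 CpGs of the 5hmC table were also in the 5mC table. Position alone decided which CpGs were taken, but the cluster itself was chosen with earlier results of these data known. The cells were SV-HUC-1, a human urothelial line immortalised with SV40, so each group came from this 1 line. They had received 2,6-dichloro-1,4-benzoquinone (DCBQ), a chlorinated quinone that arises during water disinfection, or the blank solution alone, and exposure lasted 3 days. Each condition had 3 libraries of reduced representation bisulfite sequencing (RRBS) and 3 with an oxidation step before bisulfite (oxRRBS), 12 libraries in 4 groups, and each table had 3 control and 3 DCBQ columns. The question was whether the exposure changed either mark along these genes.

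HOX genes encode homeobox transcription factors that set position along the body axis, and in mammals they lie in clusters whose gene order follows the order of their activity in the embryo. The 5′ HOXD genes, led by HOXD13, act in the distal limb and in the genital and hindgut region, and the 3′ genes, down to HOXD1, act further forward and earlier. Where HOX genes are silent, Polycomb proteins often cover their CpG islands, and these islands are commonly free of 5mC. TET enzymes oxidise 5mC to 5hmC. Bisulfite alone reads both marks together, whereas oxidation first leaves 5mC as the reading.

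Levels are the percent of a CpG's reading assigned to a mark, averaged with equal weight over the CpGs of a region, and differences are in percentage points, DCBQ minus control. The depth behind each value is unknown beyond the minimum of 5 reads per CpG that the tables' names give, so no interval from reads is printed. Within the cluster, samples correlated across CpGs at r = 0.965 to 0.976 for 5mC but only 0.164 to 0.254 for 5hmC, so single 5hmC readings were far less repeatable. The labels do not say that samples came from separate cultures, and p-values therefore measure only the spread between these samples. No source used here says how the libraries were combined into the tables. Bisulfite alone reads both marks, so a 5hmC level cannot come from RRBS alone and needs the oxRRBS reading as well. A difference in one mark is therefore not independent of the other.

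Promoter sequences of HOXD1, HOXD10, HOXD4 and HOXD3 are shown because they span the range of promoter 5mC seen here and hold the cluster's largest promoter difference. In windows from 1500 bp before to 500 bp after the start, HOXD1 had the lowest and HOXD4 the highest promoter 5mC of the 9 HOXD genes in controls, HOXD3 had the largest difference, and HOXD10 was added after its values were seen. Each is the 250 bases before the start on the plus strand (RefSeq, GRCh38.p14), and capitals mark the CpGs measured in the 5mC table.
HOXD1 promoter: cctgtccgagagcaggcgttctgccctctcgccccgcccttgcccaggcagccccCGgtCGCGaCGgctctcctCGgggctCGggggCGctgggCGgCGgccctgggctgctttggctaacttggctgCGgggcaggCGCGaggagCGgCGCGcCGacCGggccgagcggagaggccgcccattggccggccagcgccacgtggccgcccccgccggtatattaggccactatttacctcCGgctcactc
HOXD10 promoter: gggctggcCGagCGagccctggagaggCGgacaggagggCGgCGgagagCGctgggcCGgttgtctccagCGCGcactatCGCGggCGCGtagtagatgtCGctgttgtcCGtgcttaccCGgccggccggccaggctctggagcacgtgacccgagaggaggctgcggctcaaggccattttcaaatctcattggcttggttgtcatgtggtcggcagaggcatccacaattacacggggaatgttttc
HOXD4 promoter: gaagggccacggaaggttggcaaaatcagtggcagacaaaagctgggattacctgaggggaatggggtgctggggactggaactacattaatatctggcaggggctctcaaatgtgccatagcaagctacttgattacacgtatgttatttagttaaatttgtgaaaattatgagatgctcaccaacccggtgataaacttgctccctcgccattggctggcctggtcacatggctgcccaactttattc
HOXD3 promoter: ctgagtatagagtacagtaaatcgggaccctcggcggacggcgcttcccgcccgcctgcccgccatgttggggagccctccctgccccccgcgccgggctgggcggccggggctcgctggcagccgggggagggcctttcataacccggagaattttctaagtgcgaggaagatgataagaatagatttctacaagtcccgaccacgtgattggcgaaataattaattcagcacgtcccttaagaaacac
The HOXD1 stretch, chr2:176188418-176188667, holds 31 CpGs, of which 18 were measured, and none of these averaged above 8.13% 5mC in controls. The HOXD10 stretch, chr2:176116528-176116777, holds 23 CpGs, and its 16 measured ones averaged between 55.5% and 91.9% each. CpG-rich sequence thus carried opposite 5mC states at these promoters. The HOXD4 stretch, chr2:176151300-176151549, holds only 4 CpGs and the HOXD3 stretch, chr2:176157057-176157306, holds 21, and in neither was any CpG measured. The letters CCGG, a palindrome that reads the same on both strands and is the site of MspI, the enzyme common in RRBS, occurred in the 300-base entries of 8 of the 8 HOXD genes with one, against 63.1% of 35116 promoter entries in the same table. The labels do not name the enzyme, and HOXD9 had no entry.

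Over the whole cluster, mean 5mC differed between DCBQ and control cells by less than the spread of the samples. Control samples stood at 40.70%, 40.21% and 40.51% and treated ones at 40.74%, 40.36% and 41.01%, with overlapping ranges. The means were 40.48% ± 0.25 (SD, n = 3) and 40.70% ± 0.33 (SD, n = 3), a difference of 0.23 points (SE 0.24) with a two-sided exact permutation p of 0.4, where 0.1 is the smallest that 3 samples against 3 allow. Mean 5hmC read 3.61%, 3.68% and 3.52% in controls and 3.68%, 3.44% and 3.37% after DCBQ, again with overlap. Its difference was -0.11 points (SE 0.10, two-sided exact permutation p = 0.3).

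Among 15722 genome windows of 110 kb with at least 50 CpGs, the cluster was unusual in how many CpGs were measured but not in its 5mC level or its difference. Only 58 windows (0.369%) held more measured CpGs, and the median window held 145. The cluster's 5mC, 40.6% over all 6 samples, was below the median window at 56.3%, and 24.9% of windows were lower still. Its 5mC difference did not pass (limma adjusted p = 0.781), nor did its 5hmC difference among 15166 windows (limma adjusted p = 0.999), and limma called 0% of windows for either mark. The median window differed by -0.37 points in 5mC, and 75% of windows read lower in DCBQ.

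Most of the contrast inside the cluster was between neighbouring regions, not between treatments. Of 59 tiles of 1 kb with at least 3 measured CpGs, 55 held at least 5 CpGs and were tested. Their control 5mC ran from 1.12% to 89.6% with a median of 68.7%, and 15 tiles were under 20% while 28 were at 60% or more. The lowest tile, chr2:176130001-176131000 over HOXD8 and the antisense gene LOC100129455, had 98 measured CpGs and read 1.12% ± 0.11 (SD) in controls and 1.02% ± 0.21 after DCBQ. The tiles next in order were chr2:176122001-176123000 at HOXD9 with 1.28% in controls and chr2:176188001-176189000 at HOXD1 with 1.37%. At the other end, chr2:176115001-176116000 at the far end of HOXD11 read 89.6% ± 0.65 and 88.9% ± 0.77. The tile chr2:176121001-176122000, just before HOXD9, read 85.4%, and chr2:176124001-176125000, at its far end, read 85.1%. HOXD9 therefore had some of the lowest and some of the highest tiles of the cluster within its gene and the tile before it.

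**Figure D1:**
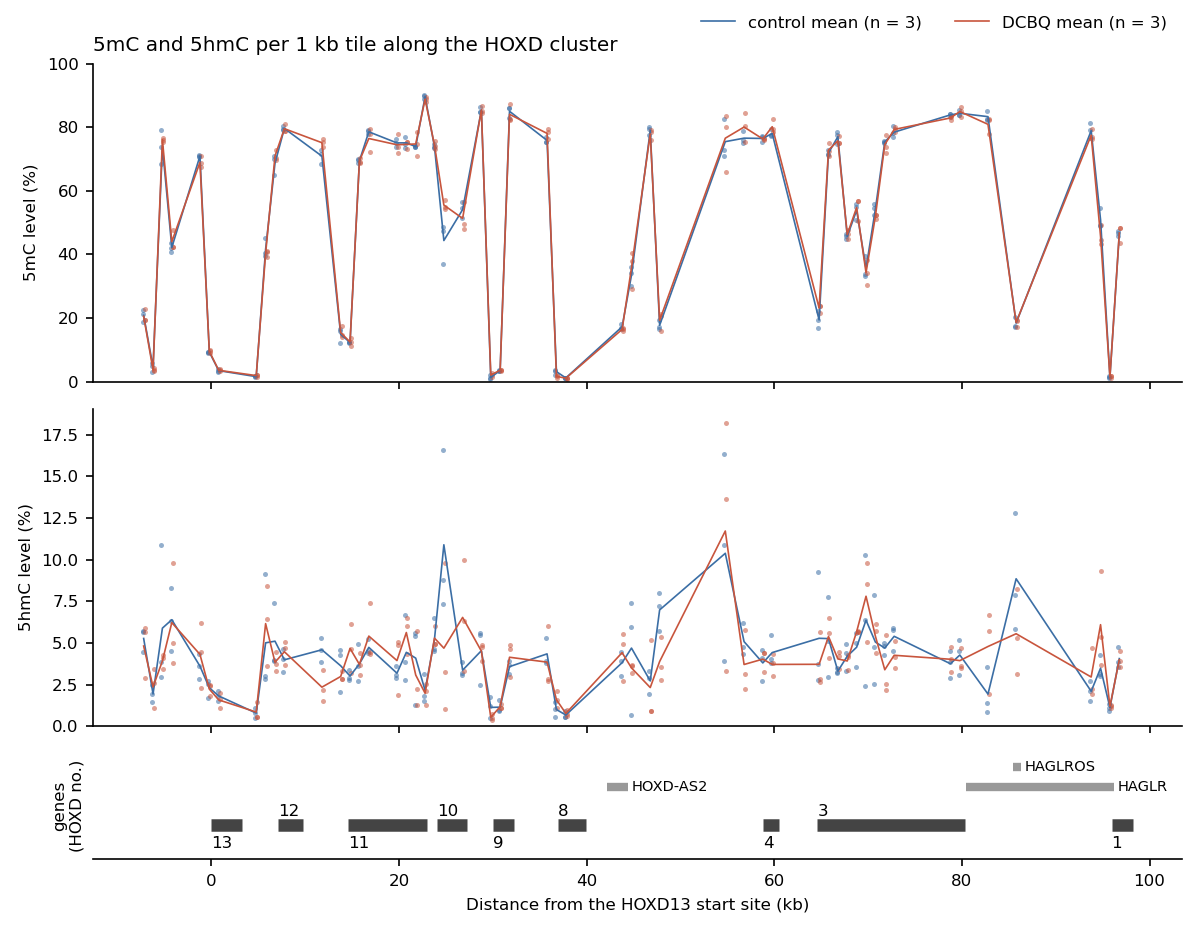
5mC and 5hmC level (%) of 1 kb tiles with at least 5 CpGs against distance from the HOXD13 start (kb). Points are samples, and lines join the group means of measured tiles across gaps with no tile. At the bottom, HOXD bars run from the start used here to the gene end, and the bars of noncoding genes are gene spans. The control and DCBQ lines of 5mC lie close together from 1.12% to 89.6%, with their widest gap in HOXD10, whereas 5hmC points of one group scatter widely.

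Of these 55 tiles, 30 read higher and 25 lower in DCBQ for 5mC, with a median difference of 0.10 points, and 41 differed by under 2 points. Limma called 0 at an adjusted p under 0.05, as it did for 0% of 210465 tiles in the genome, and the smallest adjusted p in the cluster was 0.744. At an unadjusted p under 0.05 there were 4 tiles, 7.27% of the cluster against 6.2% genome-wide. The groups were apart, meaning that all DCBQ samples lay above all controls or all lay below them, in 3 tiles (5.45%), against 11.5% genome-wide. In 2 of the 3 DCBQ was higher, as in 3.38% of all tiles, and in 1 it was lower, as in 8.11%. By the unadjusted p, DCBQ was higher in the HOXD10, HOXD3 and HOXD12-to-HOXD11 tiles described next (1.73% genome-wide) and lower in the HOXD8 tile (4.47%). The 3 higher tiles by unadjusted p, 5.45% of the 55, are a larger share than in the genome, and the other shares are near or below the background. In 42 of the 55 tiles the 5hmC difference had the opposite sign to the 5mC difference, as it had in the 3 tiles with 5mC groups apart. Opposite signs were thus common along the cluster, in marks that are not independent, and their genome-wide share is not given here.

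The largest tile difference was in HOXD10, a gene of the hindlimb and its motor neurons, at chr2:176117001-176118000. With 8 CpGs, this tile read 37.0%, 47.5% and 48.6% 5mC in controls and 57.3%, 54.98% and 54.4% after DCBQ. All DCBQ samples lay above all controls, and the first control lay far below the other controls. The difference was 11.2 points (limma SE 3.39, adjusted p = 0.744). In the same tile 5hmC read 16.6%, 8.77% and 7.33% in controls, where it was the highest of the 55 tiles, and 1.01%, 3.27% and 9.77% after DCBQ. The control column highest in 5hmC was the one lowest in 5mC, and the groups overlapped (difference -6.21, limma SE 3.33, adjusted p = 0.973).

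Of the 8 CpGs in that tile, which lie 888 to 1016 bp after the HOXD10 start, 7 read higher in 5mC after DCBQ and 3 had groups apart. The tile was picked for its large difference, so these counts do not add to it. A genome-wide share of single CpGs with groups apart is not given here. At +1012, controls read 50%, 72.9% and 53.8% and DCBQ samples 83.6%, 80.3% and 81.4%. At +1016, 5mC read 54.2%, 58.6% and 56.5% against 72.0%, 65.4% and 72.2%, and 5hmC read 12.1%, 5.82% and 14.7% in controls and 0 in each DCBQ sample. The 8 CpGs lie so close that neighbours can be read on the same molecules, and they are not separate measurements.

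Other tiles with small p were spread over the cluster. Between HOXD12 and HOXD11, in no gene span, chr2:176104001-176105000 read 68.5%, 72.8% and 71.6% in controls and 73.8%, 76.4% and 75.4% after DCBQ (difference 4.23, limma SE 1.72, adjusted p = 0.799). Here too the groups were apart, and 5hmC was 4.58%, 5.30% and 3.87% against 1.497%, 2.15% and 3.38%, also apart. The tile chr2:176128001-176129000 before HOXD8, with no overlap of HOXD8 itself, read 75.9% ± 0.84 (SD) and 78.1% ± 1.58.
The HOXD8 start lies in chr2:176129001-176130000, an almost unmethylated tile of 57 CpGs. It read 3.40%, 2.16% and 3.75% in controls and 2.03%, 1.23% and 1.68% after DCBQ, the only tile apart and lower (difference -1.46, limma SE 0.48, adjusted p = 0.760). Its 5hmC was 0.999% ± 0.46 (SD) and 1.59% ± 0.53. The tile includes position 176129412, which averaged 59.2% 5mC in controls and 22.6% after DCBQ. The tile's 5mC difference thus rests partly on that CpG, and the tile without it was not tested. The stretch chr2:176129414-176130603, which begins just after that CpG, read 1.35% and 1.10% 5mC with overlap. Lower values with overlap were also read in HAGLR, a long noncoding gene antisense to the HOXD genes. There chr2:176187001-176188000 read 50.9% ± 3.12 (SD) and 45.7% ± 3.02, and chr2:176175001-176176000 read 83.4% ± 1.47 and 81.0% ± 2.78. At the start of LOC401021, within the HOXD-AS2 span, chr2:176136001-176137000 read 17.2% ± 0.73 and 16.4% ± 0.49.

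HOXD promoters fell into a low and a high set in both treatments. Promoters here ran from 1500 bp before to 500 bp after the most upstream start in the RefSeq promoter table, and for HOXD9, which has no entry, the gene end with more measured CpGs took its place. HOXD13, mutated in synpolydactyly, read 14.8% ± 0.13 (SD) 5mC in controls and 14.7% ± 0.41 after DCBQ over 89 CpGs. HOXD11, which acts in the forearm and kidney, read 12.1% ± 0.97 and 12.2% ± 1.497 over 133 CpGs. The promoters of HOXD9, HOXD8 and HOXD1 were also low: HOXD9 read 23.4% and 23.9%, HOXD8 12.4% and 12%, and HOXD1 6.69% and 6.53%. HOXD1, whose mouse counterpart wires pain-sensing neurons, was the lowest of the 9 in these windows. Within 500 bp on either side of the start the order differed, with controls at 1.37% in HOXD9, 2.31% in HOXD8 and 3.15% in HOXD1.

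The high set held 3 promoters. HOXD12, the neighbour of HOXD13 in the limb programme, read 62.4% ± 1.87 (SD) in controls and 62.8% ± 0.75 after DCBQ over 68 CpGs. HOXD10 read 73.4% ± 0.71 and 73.9% ± 1.18 over 53 CpGs, so the tile that differed inside HOXD10 lay next to a promoter whose means differed by 0.49 points. HOXD4, a hindbrain gene that responds to retinoic acid, read 75.2% ± 1.05 and 75.5% ± 0.94 over 28 CpGs. All 6 samples of each of these promoters lay above all samples of the other 6 HOXD promoters.

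HOXD3, a gene of the neck vertebrae in mouse, had the largest promoter difference of the cluster. Its window, chr2:176155807-176157806, read 23.3%, 26.7% and 28.6% 5mC in controls and 35.6%, 39.0% and 35.0% after DCBQ. All DCBQ samples lay above all controls. The means were 26.2% ± 2.69 (SD, n = 3) and 36.5% ± 2.19 (SD, n = 3), a difference of 10.3 points (limma SE 1.70), which did not pass over all promoters (adjusted p = 0.452). In 5hmC the window read 11.0%, 5.97% and 4.46% in controls and 3.23%, 4.43% and 1.24% after DCBQ, where the lowest control and the highest DCBQ sample lay within 0.1 point of each other (difference -4.18, limma SE 1.81, adjusted p = 0.964). The window rests on only 15 CpGs, and the tile chr2:176157001-176158000, which adds CpGs further into the gene, read 19.4% ± 2.62 (SD) and 23.1% ± 1.28 with overlap. The RefSeq span of HOXD3 begins earlier, at 176152529, and a start there was not analysed here.

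Inside the HOXD3 window the measured CpGs lie at -896 to -774 and at +120 to +255, with none in the printed stretch between them. The 3 upstream CpGs were highly methylated in both groups, at 77.1% to 97.4% in controls. Downstream, 5 CpGs had groups apart, all higher in DCBQ, and of all 15 CpGs 12 read higher and 2 lower. The window was picked for its large difference, so these counts do not add to it. The downstream CpGs lie so close that they can share molecules, and they are not separate measurements. No genome-wide share of single CpGs with groups apart is given here. At +137, position 176157444, 5mC read 0, 9.40% and 7.10% in controls and 25.8%, 31.2% and 31.4% after DCBQ, and 5hmC read 17.1%, 12.9% and 0 against 0 in each DCBQ sample. At +129, 5mC read 2.9%, 21.9% and 14.3% against 35.5%, 34.4% and 31.4%. At +210, it read 11.4%, 34.4% and 21.4% against 45.2%, 46.9% and 37.3%. At +250 and +252, just further on, the groups overlapped, with 10.1% in controls and 8.43% after DCBQ at +250.

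**Figure D2:**
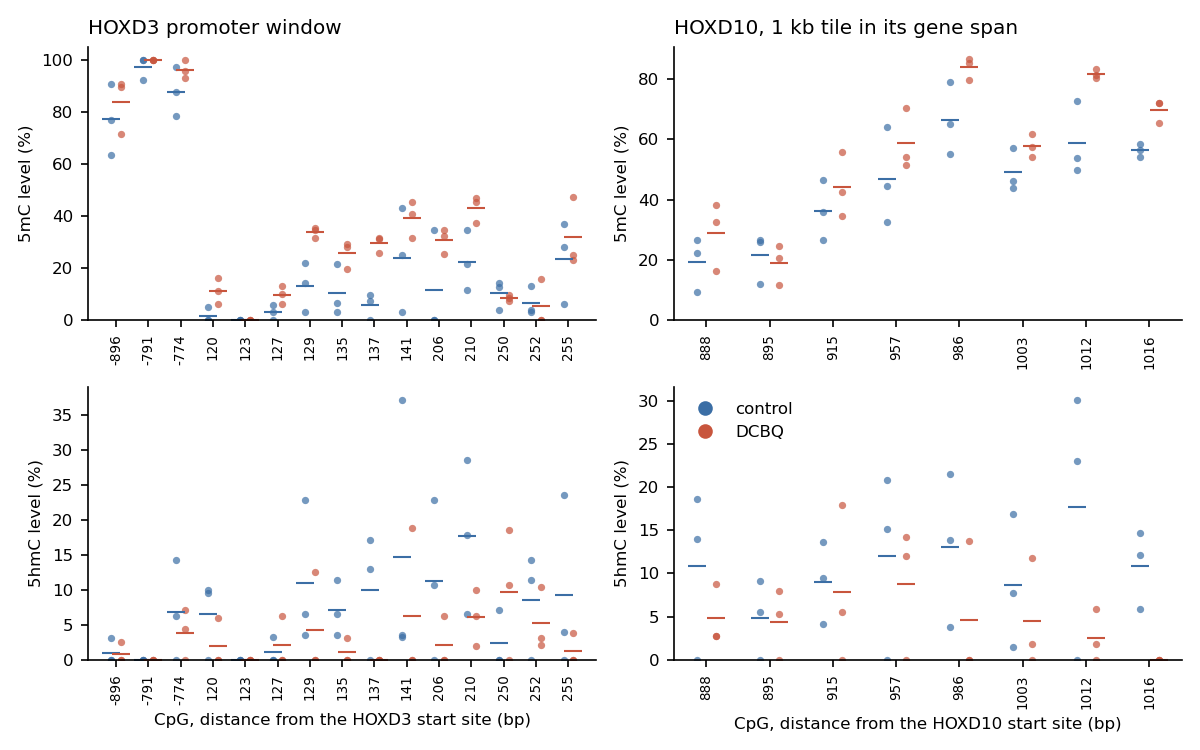
5mC (top) and 5hmC (bottom) level (%) of each measured CpG in the HOXD3 promoter window (left) and in the HOXD10 tile (right), ordered by distance from the start (bp, axis not to scale). Points are samples and ticks group means (n = 3). The window and the tile were picked for their large differences. DCBQ points of 5mC lie above the controls at 5 HOXD3 and 3 HOXD10 CpGs, and the 5hmC points of both groups spread from 0 upward.

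Over the 14 promoters of the cluster, 13 differed by under 1 point in 5mC, and 8 were higher and 6 lower, or 13 and 1 with each sample centred on its genome-wide mean, which adds 0.416 points to each 5mC difference. Limma called 0 of 14 (0% of 19964 promoters genome-wide), and HOXD3 was the only one at an unadjusted p under 0.05 (6.72% genome-wide, 2.09% higher in DCBQ) and the only one with groups apart (11.8% genome-wide, 3.65% higher). In 5hmC, limma called 0 of 14 (0% of 19795 genome-wide). HOXD3 was again the only promoter under 0.05 (4.96% genome-wide, 2.06% lower in DCBQ) and the only one with groups apart (10% genome-wide, 4.29% lower). These counts moved with the promoter width. Within 500 bp on either side of the start, HOXD3 5mC still had groups apart, at 10.9% in controls and 22.3% after DCBQ (limma adjusted p = 0.571), and HOXD8 5mC, at 2.31% and 1.48% with overlap, also had an unadjusted p under 0.05. The HOXD3 5hmC groups then overlapped, at 8.28% and 3.32%, with an unadjusted p above 0.05. HOXD11 was instead apart in 5hmC, at 2.25% and 4.18% (limma adjusted p = 0.963). At this width, 1134 of 18413 promoters genome-wide had a limma unadjusted p under 0.05 in 5mC and 883 of 18283 in 5hmC. The genome-wide share with groups apart at this width is not given here. Promoter 5hmC elsewhere ran from 0.68% at LOC100129455 to 8.85% at HAGLROS, another noncoding gene. HAGLROS read 7.88%, 12.8% and 5.86% in controls and 8.25%, 5.28% and 3.12% after DCBQ. HOXD11 read 2.30%, 3.098% and 3.17% against 5.92%, 2.75% and 4.06%. Both overlapped.

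**Figure D3:**
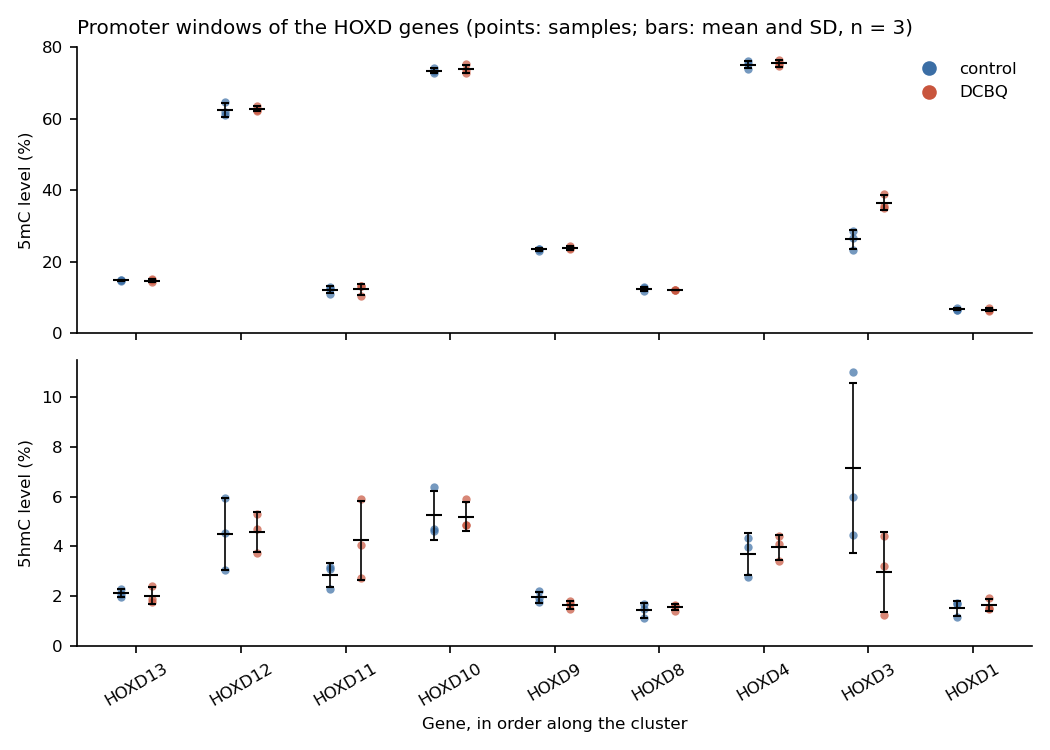
5mC (top) and 5hmC (bottom) level (%) of the promoter windows of the 9 HOXD genes, in their order along the cluster. Points are samples, bars mean and SD (n = 3); HOXD12, HOXD10 and HOXD4 sit above 60% 5mC, and HOXD3 moves from 26.2% in controls to 36.5% in DCBQ samples.

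The noncoding genes of the cluster differed by under 1 point in promoter 5mC. HAGLR read 29.9% ± 0.48 (SD) in controls and 30.1% ± 1.68 after DCBQ, HAGLROS 18.4% ± 1.66 and 18.6% ± 1.18, and HOXD-AS2 20.8% ± 1.06 and 20.4% ± 0.91. LOC401021 read 18.0% and 17.9%, and LOC100129455, which shares its island with HOXD8, read 1.15% and 1.03%. Among microRNA genes, MIR7704 lies at the HOXD1 start, at chr2:176188843-176188901. Its mature sequence is shown because 5 of its CpGs were measured; capitals mark the seed, bases 2 to 8 (RefSeq, GRCh38.p14).
hsa-miR-7704: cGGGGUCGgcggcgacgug
These 5 CpGs averaged 0.22% ± 0.20 (SD) 5mC in controls and 0.79% ± 1.36 after DCBQ, where 1 DCBQ sample read 2.36% and the others 0. MIR10B lies in the promoter window of HOXD4 and had no measured CpG, the nearest lying 476 bp before and 672 bp after the hairpin's first base.

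Gene bodies, from 500 bp after the start to the far gene end, were more methylated than the low promoters. HOXD12 read 83.3% ± 0.98 (SD) in controls and 82.9% ± 1.23 after DCBQ, HOXD4 77.5% ± 1.04 and 79.7% ± 2.09, and HOXD3 67.3% ± 0.52 and 66.9% ± 0.55. HOXD11 and HOXD1 each read 62.2% in controls, against 62.0% and 62.4% after DCBQ. The exceptions were the bodies of HOXD8, at 1.25% and 0.94%, HOXD13, at 9.74% and 9.86%, and LOC100129455, at 16.6% and 15.9%. HOXD9 read 44.7% and 44.0%, and HAGLR 40.1% and 39.3%.
The HOXD10 body, with 13 CpGs that include the 8 above, read 44.5%, 49.0% and 50.8% in controls and 53.7%, 55.5% and 52.5% after DCBQ. The groups were apart (difference 5.80, limma SE 1.77, adjusted p = 0.584), as in no other of the 12 bodies tested in 5mC, of which 4 read higher and 8 lower, or 8 and 4 after centring. Limma called 0 of 12 for either mark (0% of 22694 bodies in 5mC and 0% of 22455 in 5hmC). Genome-wide, 8.13% of bodies had an unadjusted p under 0.05 in 5mC (1.62% higher in DCBQ) and 15.2% had groups apart (2.4% higher), so 1 of 12 by either measure is near the background. In 5hmC no body of the cluster had an unadjusted p under 0.05 (5.32% genome-wide). Only the HOXD8 body had groups apart in 5hmC (9.85% genome-wide, 6.2% higher), at 0.41%, 0.72% and 0.54% in controls and 0.83%, 0.76% and 1.17% after DCBQ.

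Runs of at least 10 neighbouring CpGs that each averaged under 20% 5mC over all 6 samples, with gaps of at most 1000 bp, showed how the low regions are laid out. There were 13 such runs, with 572 CpGs, 35.1% of those measured, and 528 of them were under 20% in every sample. The longest, chr2:176129414-176130603 with 152 CpGs, covers the starts of HOXD8 and LOC100129455 and read 1.35% ± 0.26 (SD) in controls and 1.10% ± 0.15 after DCBQ. Others covered the starts of HOXD13 (69 CpGs, 2.74% and 2.80%), HOXD9 (46 CpGs, 1.07% and 1.55%), HOXD1 and HAGLR (63 CpGs, 1.84% and 1.81%), HOXD11 and HAGLROS. None lay at the starts of HOXD12, HOXD10, HOXD4 or HOXD3, and 7 runs held no start in the table used. HOXD4 and HOXD3 had no measured CpG in the 250 bases before the start, so a low run there could not be seen. Between treatments the 13 runs differed by -1.69 to 1.64 points.
A CpG beside a run could differ sharply from it without marking an edge to methylated DNA. The tile chr2:176129001-176130000, for instance, averaged 3.11% 5mC in controls but held a CpG of far higher level. At position 176129412, 2 bp before the HOXD8 run, 5mC read 46.7%, 64.3% and 66.7% in controls and 28.6%, 14.3% and 25% after DCBQ, while 5hmC there averaged 3.70% and 18.2% (5mC limma adjusted p = 0.880).

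Single CpGs gave no call in the cluster. Of 1629 CpGs, 1535 varied between samples in 5mC and were tested, and 0 passed (0% genome-wide). At an unadjusted p under 0.05 there were 71, 4.63% of those tested against 4.69% genome-wide, 40 higher (1.92% genome-wide) and 31 lower (2.77% genome-wide) in DCBQ. Besides +137 of HOXD3, the smallest p on the higher side belonged to position 176087506 at the edge of the HOXD13 span, which read 64%, 78.9% and 66.7% in controls and 94.4%, 94.7% and 95.7% after DCBQ. Position 176085983, before HOXD13, read 0.77% and 8.43% on average. On the lower side, position 176178283 in HAGLROS read 20%, 22.2% and 16.7% in controls and 6.2%, 6.2% and 7.7% after DCBQ. Position 176112122 in HOXD11 read 9.17% on average and then 0 in each DCBQ sample. None of these passed (limma adjusted p from 0.850 to 0.880 for the 6 CpGs named).
In 5hmC, 1461 CpGs were tested and 0 passed, against 9.51e-05% genome-wide. The 16 at an unadjusted p under 0.05 were 1.1% of those tested, below the 1.98% of the genome, and were 5 higher (1.07% genome-wide) and 11 lower (0.908% genome-wide). The 6 described next, with the smallest p in each direction, had values of 0 in at least 3 of the 6 samples. At position 176160666 in HOXD3 controls read 32.1%, 23.7% and 0, and DCBQ samples 0, 0.96% and 0. Positions 176159196 in HOXD3 and 176099409 before HOXD12 averaged 13.5% and 14.7% in controls and read 0 in each DCBQ sample. Positions 176189508 in HOXD1, 176121575 before HOXD9 and 176162797 in HOXD3 read 0 in each control and averaged 12.8%, 11.4% and 11.4% after DCBQ. All 6 overlapped between groups (limma adjusted p = 0.781).

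5hmC followed the 5mC class more than the treatment. CpGs of the cluster with 20% to 80% mean 5mC read 6.30% 5hmC in controls and 5.99% after DCBQ. Those under 20% read 2.096% and 1.96%, and those at 80% or more 2.88% and 3.06%, with overlapping groups in each class. The same classes outside the cluster read 6.43%, 1.55% and 2.86% in controls. By tile, 5hmC ran from 0.67% to 10.9% in controls, and 28 tiles were higher and 27 lower in DCBQ. Limma called 0 of 55 (0% of 201935 genome-wide), 0 had an unadjusted p under 0.05 (4.83% genome-wide), and 3 had groups apart (9.94% genome-wide). Of these, 1 was higher (5.55% genome-wide) and 2 lower (4.39% genome-wide).
The second of the lower ones, chr2:176140001-176141000 at the far end of LOC401021, read 8.01%, 7.24% and 5.69% in controls and 2.75%, 3.55% and 5.35% after DCBQ (limma adjusted p = 0.973). The HOXD9 tile chr2:176122001-176123000 read 1.13% ± 0.64 (SD) and 0.53% ± 0.16. On the higher side, HAGLR tiles at 176175001 and 176187001 read 1.93% and 4.78%, and 3.48% and 6.09%. A tile at the far end of HOXD10, at 176119001, read 3.36% and 6.53%. The highest 5hmC after the HOXD10 tile was at 176147001, in no gene span, where 11 CpGs read 16.4%, 3.90% and 10.9% in controls and 13.6%, 18.2% and 3.33% after DCBQ, so samples of 1 group differed widely. The lowest, at HOXD8, read 0.67% and 0.77%, and the low tile before HOXD12, at 176097001, read 0.79% and 0.85%.

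The HOXD cluster had a lower mean 5mC than the other HOX clusters and than the mean of all CpGs outside it, though 24.9% of windows of its size were lower still. In each of the 6 samples it was below the CpGs outside it, with differences of -14.2 to -13.1 points. HOXD minus HOXA ran from -10.2 to -9.26 points, HOXD minus HOXB from -11.2 to -10.4 and HOXD minus HOXC from -6.13 to -4.91. Each level difference had the smallest two-sided exact sign-flip permutation p that 6 samples allow, 0.03125 (0.0357 adjusted over 8 tests). Over samples its 5hmC was higher than in HOXA by 0.89 points, in HOXB by 0.37 and in HOXC by 0.39, in 6 of 6 samples each (exact sign-flip permutation p = 0.03125, adjusted 0.0357). Against the genome it was higher in 5 of 6 samples, by 0.13 points (exact sign-flip permutation p = 0.1875). The 6 samples come from 1 cell line, so these tests show only that the order of the clusters repeats between its samples.
The lower mean came with fewer CpGs at 80% 5mC or more. Of the HOXD CpGs, 25.5% were at 80% or more in controls, against 39.9% in HOXA, 40.2% in HOXB and 38.1% in HOXC, and 31.0% were between 20% and 80%, against 21.8%, 22.4% and 18.0%. CpGs under 20% made up 43.5% in HOXD, against 38.4% in HOXA, 37.4% in HOXB and 43.9% in HOXC. After DCBQ the HOXD shares were 25.9% at 80% or more, 30.4% between and 43.7% under 20%, and the groups overlapped.

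**Figure D4:**
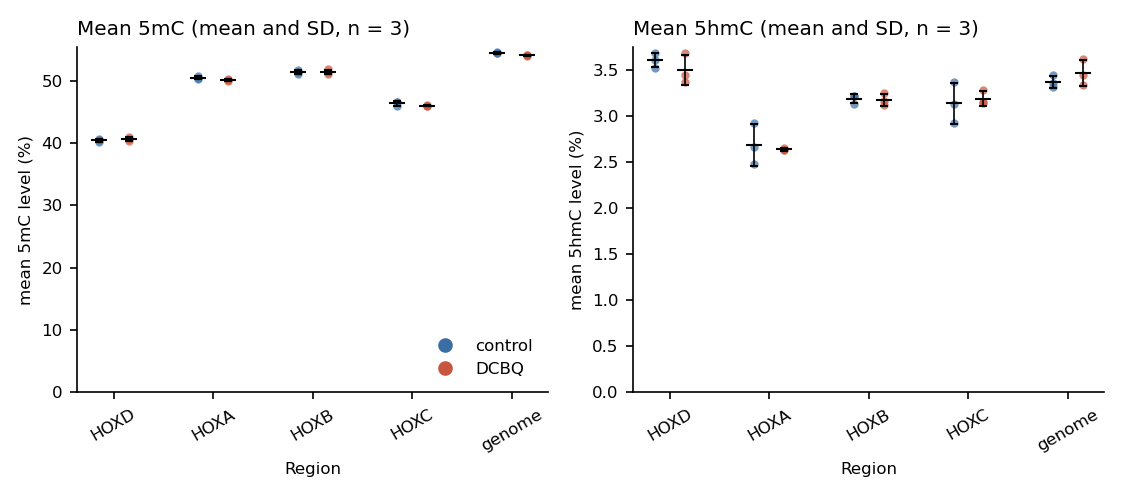
Mean 5mC (left) and 5hmC (right) level (%) per sample in the 4 HOX clusters and in all CpGs outside the HOXD cluster (genome). Points are samples, bars mean and SD (n = 3); HOXD has the lowest 5mC, near 40.5% in controls, and the highest 5hmC of the 4 clusters, and the groups overlap within each cluster.

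The treatment difference of HOXD could not be shown to differ from that of any of these regions. CpGs outside the cluster read 54.55% in controls and 54.13% after DCBQ, with groups apart. The gap between HOXD and the genome was thus 0.64 points smaller after DCBQ (SE 0.25). That gave a two-sided exact permutation p of 0.1, the smallest possible (0.4 adjusted over 8). Against a genome weighted to the CpG density of the cluster, the change was 0.50 points (SE 0.25, two-sided exact permutation p = 0.3). Against HOXA the change was 0.54 points (exact permutation p = 0.2), against HOXB 0.17 (exact permutation p = 0.6; -0.0181 without DCBQ replicate 3) and against HOXC 0.63 (exact permutation p = 0.1). For 5hmC the 4 changes ran from -0.21 to -0.06 points, with exact permutation p of 0.3 to 1, and those against HOXA and HOXB changed sign when 1 sample was left out. Without DCBQ replicate 3 the 5hmC change against the genome went from -0.21 to -0.07 and that against HOXC from -0.16 to -0.05.

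Gene lists around the HOX system gave no call in either mark. In promoter 5mC, 6 of the 9 HOXD genes read higher and 3 lower (median 0.35 points, against -0.11 over all genes), and 9 read higher after centring on the genome-wide mean, when the median over all genes was 0.31. The counts higher and lower were 4 and 7 of 11 in HOXA, 3 and 6 of 9 in HOXB, and 4 and 5 of 9 in HOXC. Among TALE homeobox genes, whose products bind DNA with HOX proteins, 4 were higher and 4 lower. Over all genes, 7984 promoters were higher and 11975 lower of 19964, so lower values prevailed outside the lists too. Polycomb genes, which silence HOX clusters, had 9 higher and 20 lower of 29, and Trithorax and H3K27 demethylase genes, which oppose them, 4 higher and 8 lower of 12. Centring turned most of these splits, to 9 higher of 11 in HOXA, 5 of 9 in HOXC, 7 of 8 in the TALE genes, 21 of 29 in the Polycomb genes and 11 of 12 in the last list, and left 4 of 9 higher in HOXB. At an unadjusted p under 0.05 were HOXD3, HOXB13, the HOXD neighbour LNPK and the Polycomb gene RBBP7, 1 gene in each of 4 lists and 0 in the other four, against the 6.72% of all promoters given above. LNPK read 1.99% in controls and 1.07% after DCBQ, RBBP7 1.96% and 1.28%, and HOXB13 29.4% and 31.4%. In promoter 5hmC, HOXB8 read 2.27% in controls and 5.17% after DCBQ and its neighbour HOXB7 1.37% and 2.80%, in windows that overlap. The Polycomb gene PCGF6 read 0.52% and 1.30%, and CXXC1, of the Trithorax list, 0.44% and 0.90%. With HOXD3 these 5 were the list members at an unadjusted p under 0.05 in 5hmC, 2 of 9 in HOXB, 1 of 9 in HOXD, 1 of 28 Polycomb and 1 of 12 Trithorax genes, against the 4.96% of all promoters given above. None passed (limma adjusted p = 0.964).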

How the data were processed

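The values the authors deposited are fractions from 0 to 1 per CpG, in separate tables for each mark with 3 control and 3 DCBQ columns; levels are printed as percent. BSMAP 2.90, Trim Galore, cutadapt and the hg38 build are named per the submitters' processing notes. The sources used here give neither the read depth nor how libraries were combined; per the file names, CpGs had at least 5 reads and strands were merged. Columns were matched to groups by name, and 0 belonged to no sample.

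CpGs were averaged over 1 kb tiles, promoters and gene bodies with at least 5 CpGs and 110 kb windows with at least 50, and fitted genome-wide with limma 3.58.1 (R 4.3.3; lmFit, eBayes with trend) on the untransformed level, with Benjamini-Hochberg adjusted p under 0.05 as the threshold (single CpGs also at least 10 points). Region means were compared by two-sided exact permutation tests. The code was tested on simulated data. Python 3.11.15, pandas 2.3.3 and matplotlib 3.10.9 were used. Gene spans and sequences came from RefSeq tables (GRCh38.p14); exons, introns and UTRs were not analysed here. Other HOX clusters ran from 5 kb before the lowest to 5 kb after the highest gene position. The HOXD cluster, the gene lists and the tests were chosen with earlier results of these data known. All 9 HOXD genes and the noncoding genes in the region were described. With no call, the 4 tiles and 3 CpGs of smallest p per direction and mark, the 3 highest and 3 lowest tiles, and the 2 members of smallest p per list were eligible to be named. Alternatives covered the replicate block, centring, an arcsine scale, unit size, CpG minimum, promoter width and leaving out each replicate. For region means they included a genome weighted to the CpG density of the cluster and a mean of 1 kb tile means.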

Additional observations from a re-analysis of the deposited data

How the results depend on the processing

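Under every alternative run, 0 HOXD tiles, promoters, gene bodies or CpGs passed the threshold. Deviations of samples with the same number correlated at -0.004 to 0.006 across 5mC tiles and -0.035 to 0.009 for 5hmC. Those with different numbers correlated at -0.010 to 0.010 and -0.015 to 0.029. The correlations thus showed no pairing by number, but they cannot tell whether samples of the same number were handled together. The replicate block changed the SE of the cluster's 5mC difference from 0.24 to 0.14 points. With the replicate block, the HOXD3 promoter differed by 10.3 points in 5mC (limma adjusted p = 0.666) and the count of calls stayed 0 for both marks. Leaving out each sample in turn, the HOXD3 promoter differed by 8.87 to 11.5 points (limma adjusted p 0.595 to 0.655). The HOXD10 tile then differed by 7.49 to 13.3 points (limma adjusted p 0.758 to 0.867). The cluster mean then differed by 0.07 to 0.40 points in 5mC and -0.20 to -0.04 in 5hmC. Other settings moved the cluster's 5mC difference further. As a mean of 1 kb tile means it was 0.71 points (SE 0.45, two-sided exact permutation p = 0.2). After centring on the genome-wide mean it was 0.64 points (SE 0.25, two-sided exact permutation p = 0.1). With each sample left out, the change of HOXD against HOXB in 5mC ran from -0.0181 to 0.349 points, and turned negative without DCBQ replicate 3. The 5hmC changes ran from -0.18 to 0.01 against HOXA, turning positive without control replicate 3 (0.00516) and without DCBQ replicate 3 (0.0134), and from -0.197 to 0.00554 against HOXB, turning positive without DCBQ replicate 3. The causes of these reversals were not tested. Against the genome the 5hmC change ran from -0.31 to -0.07 and against HOXC from -0.27 to -0.05, smallest without DCBQ replicate 3 for both. Centring, which by construction adds 0.416 points to every 5mC difference, turned 5 promoters from lower to higher: HOXD8 (to 0.00731), HOXD13 (to 0.32), HOXD1 (to 0.25), LOC100129455 (to 0.30) and LOC401021 (to 0.34). Leaving out samples for the comparisons with the genome and other clusters, for single CpGs, gene bodies and windows, the block for the last 2, and the splits after centring were chosen after seeing the data. Unknown read depth and 3 samples per group limit the precision, most of all for 5hmC of single CpGs.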
